A study of Homo sapiens with 14 samples.

Results

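The genes described here are JUN, JUNB and JUND, the JUN family of the AP-1 transcription factor, FOS, FOSB, FOSL1 and FOSL2, its FOS family, and ATF3 and EGR1, which like FOS and JUN are known as immediate early genes. The series measured RNA of SETD2 knockout (KO) HEK293T cells and of wild type (WT) HEK293T cells, with 3 libraries listed for each genotype. HEK293T, the parent line of both groups, derives from human embryonic kidney and expresses the large T antigen of SV40, and SETD2 is the enzyme that trimethylates lysine 36 of histone H3. No treatment is named for either group, and whether the knockout cells are 1 clone, and how they were made, is not stated in the labels. The series also lists 8 ChIP samples, which were not analysed here.

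For each of the 9 genes, all transcript rows were taken whose hg19 locus contains a fixed point of the gene, and 1 anchor transcript was set per gene. This gave 141 rows of the 204092 in the files. No gene symbols stand in the files, so the names rest on these positions. The deposited locus had 3321 bases at JUN, where RefSeq (GRCh38.p14) lists a gene of 3257 bases, and the lengths were also close at EGR1 (3826 and 3825 bases), FOS (3457 and 3403 bases), FOSL1 (8525 and 8497 bases), ATF3 (55444 and 55371 bases) and JUND (1870 and 1929 bases). The FOSL2 locus had 32904 bases against 24460 in RefSeq. The loci that contain JUNB and FOSB were far longer than those genes, 111949 bases against 1830 and 99195 bases against 7184, and held 104 of the 141 rows. In RefSeq JUNB lies between HOOK2 and PRDX2, and FOSB between ERCC1 and RTN2. Sums over the JUNB and FOSB loci are therefore not values of these genes. Their anchors are used for levels, and the merged sums enter only the summary over 9 loci and the comparison with neighbouring loci.

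AP-1 factors bind DNA as dimers joined through a leucine zipper. JUN proteins pair with one another or with FOS proteins, whereas FOS proteins need a JUN partner. The RNAs of FOS, JUN, ATF3 and EGR1 are made within minutes of a mitogen, serum or stress signal, without new protein synthesis, and are short-lived. FOSL1 and FOSL2 usually follow later, and JUND is known to be held at a steady level in growing cells.

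All values are FPKM (fragments per kilobase of transcript scaled to all mapped fragments) that the authors deposited as 1 value per group, so that neither the spread between libraries nor their depth is known here. Each group has a value in a table of tests and another in a tracking table, which also gives a lower and an upper bound whose level is not stated. The wild type values of the tracking table were 0.974 to 0.980 times those of the test table over member rows of at least 0.5 FPKM. The knockout values differed more, from 0.652 to 1.65 times between the 5th and 95th percentiles of all transcripts of at least 0.5 FPKM. How many libraries entered each KO value is not stated, and why the KO values of the tables differ was not tested. Both are therefore given for many of the values. A value without a named table is from the test table, and intervals are from the tracking table. The genes were chosen by the locus of each row, with the deposited folds and q-values of these tables already known, that of JUN among them. Their values are therefore a description, and the only p-values given are those the authors deposited.

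JUN, the AP-1 subunit with the strongest activating domain of its family, was the most abundant of the 9 genes and the only one with a call. Its single transcript ENST00000371222, at chr1:59246465-59249785 (hg19), stood at 126 FPKM in KO cells and 63.4 FPKM in WT cells in the authors' deposited table of tests. It rose 1.99-fold in KO cells, a log2 fold of 0.99, with p = 5e-05 and q = 0.0220 in the authors' deposited table. In the tracking table it stood at 125 FPKM (interval 85.2 to 165 FPKM) in KO cells and at 61.9 FPKM (42.3 to 81.4 FPKM) in WT cells. The intervals of the genotypes did not overlap. In bulk RNA, more cells with a transcript and more of it per cell cannot be told apart. JUN was 1 of 89 tested member rows to pass a q-value of 0.05, beside 0.255% of all 85852 tested transcripts and 0.0629% that passed as higher in KO cells. Only 23 of the 89 rows lay at the 7 loci other than the merged JUNB and FOSB loci, which hold further genes. JUN was also the only tested member row with intervals that did not overlap, which held for 0.632% of all tested transcripts.

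**Figure D1:**
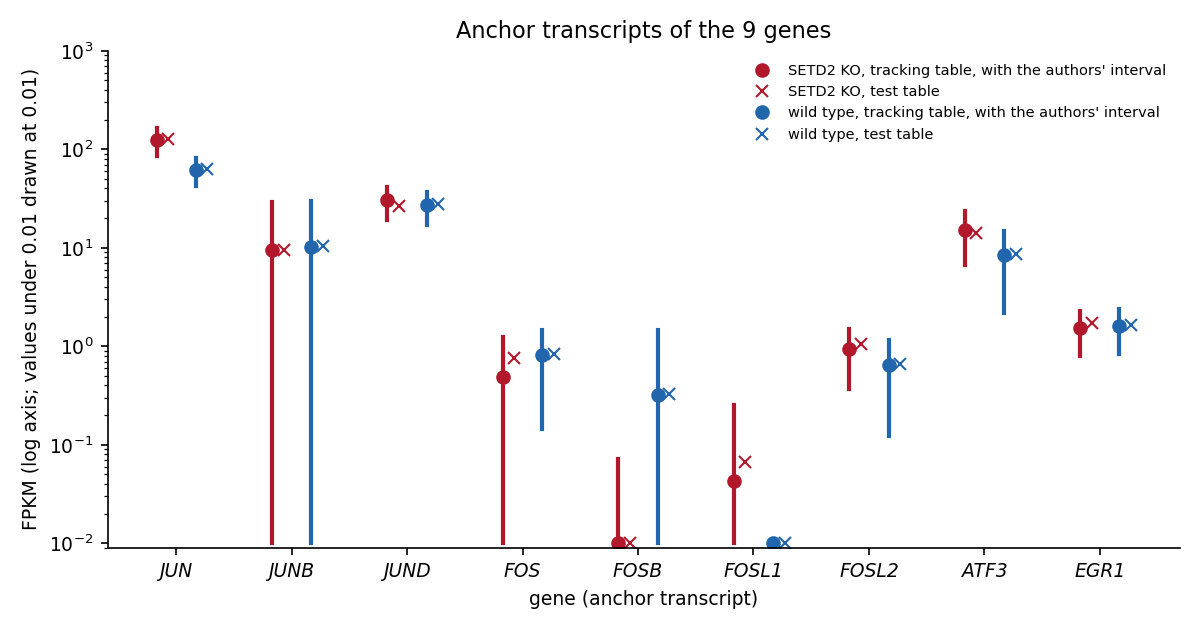
FPKM of the anchor transcript of each gene on a log axis, SETD2 KO in red and wild type in blue; circles with lines are tracking-table values with the authors' intervals, crosses are test-table values. The intervals of JUN, at 125 FPKM in KO cells and 61.9 FPKM in WT cells, lie apart, while those of JUNB and the FOS genes are wide and overlap.

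The fold of JUN was small among called rises, and its level high. Among the 35 called rises with a value above 0 in both groups its fold ranked 28th, while by level in KO cells it was the second of all 54 called rises, and so it was by its gain of 62.5 FPKM. Transcripts of like abundance put this in proportion: 2300 tested transcripts had a mean of 50 to 200 FPKM over both groups, and 71 of them had a fold at least as large as that of JUN. JUN was the only 1 of these 71 that was called. Of 125 tested transcripts in this range that are alone at their locus, 5 had a fold at least as large as that of JUN and 2 were called, both higher in KO cells.

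**Figure D2:**
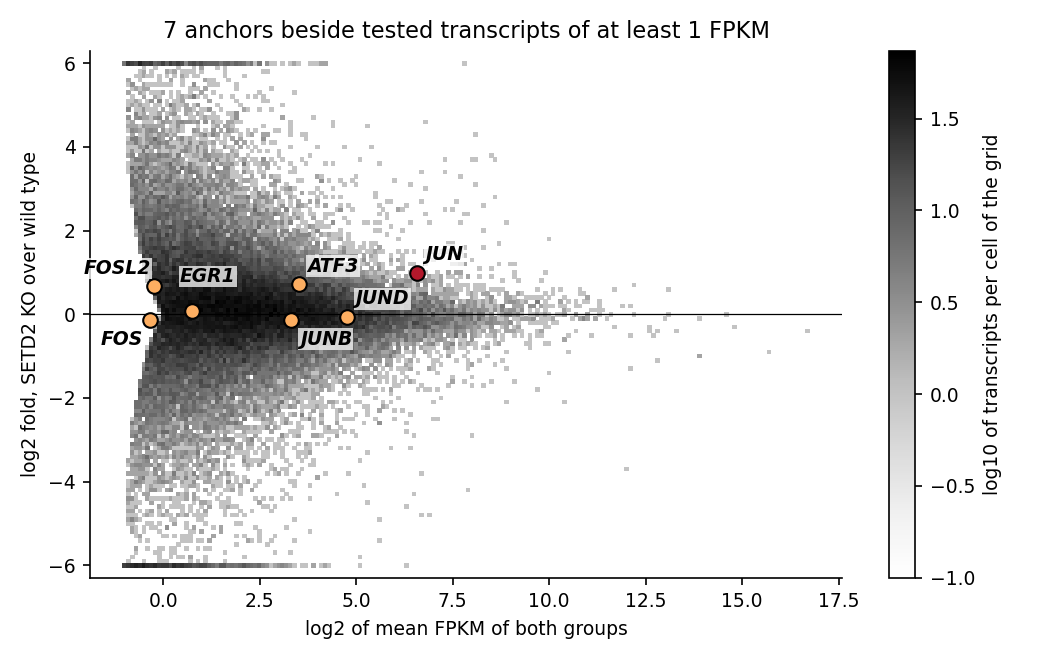
Log2 fold of SETD2 KO over wild type against log2 mean FPKM in the test table; grey squares count tested transcripts that reach 1 FPKM in either genotype, with folds beyond 6 in size drawn at 6, and circles mark 7 anchors, red where called. JUN lies above most transcripts of its level, with a log2 fold of 0.99, and JUND and JUNB lie near 0.

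Neither of the other JUN family genes was called, and the difference between their folds and that of JUN was not tested. JUND, which can restrain growth where JUN promotes it, had 2 transcript rows at chr19:18390563-18392432 (hg19). Its anchor ENST00000252818 stood at 26.7 FPKM in KO cells and 27.9 FPKM in WT cells (p = 0.791, q = 0.991 in the authors' deposited table), and ENST00000600972 at 24.5 and 28.8 FPKM in the same order (p = 0.699). In the tracking table both rows were slightly higher in KO cells, the anchor at 30.2 FPKM (interval 19.1 to 41.4) in KO cells and 27.2 FPKM (17.2 to 37.2) in WT cells. The sign of the JUND difference thus depends on the table, and its intervals overlapped. The JUNB anchor ENST00000302754 stood at 9.56 FPKM in KO cells and 10.4 FPKM in WT cells (p = 0.924 in the authors' deposited table). Its intervals ran from 0 to 29.1 FPKM in KO cells and from 0 to 30.1 FPKM in WT cells, too wide to show a change of the size seen at JUN.

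Added over the 3 anchors, JUN family RNA came to 162 FPKM in KO cells and 102 FPKM in WT cells. JUN made up 77.6% of this sum in KO cells and 62.3% in WT cells. JUND held 16.5% of it in KO cells and 27.4% in WT cells, and JUNB held 5.90% in KO cells and 10.3% in WT cells. The tracking table gave JUN 75.8% in KO cells and 62.3% in WT cells. The other JUND row is not in these sums, since the anchor held 52.1% of the JUND locus in KO cells and 49.2% in WT cells. With that row added the share of JUN would be lower in both groups.

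The promoters of JUN and JUND are shown because JUN was called and JUND of the same family was not, those of ATF3, FOS and EGR1 as examples of the other immediate early genes whose loci are not merged with further genes. The RefSeq promoter table (GRCh38.p14) held 8 of the 9 genes. Each run is the 250 bases before the start, on the strand of the gene, 5′ to 3′, at chr1:58784048-58784297 (minus strand) for JUN, chr19:18281623-18281872 (minus) for JUND, chr1:212565157-212565406 (plus) for the first of the ATF3 starts, chr14:75278578-75278827 (plus) for FOS and chr5:138465229-138465478 (plus) for EGR1. Capitals mark any match, on either strand, to the AP-1 site, the cAMP response element (CRE) and its first 5 letters (here CRE core), the TATA box, the GC box, the CCAAT box, the EGR site, the CArG box bound by serum response factor, and a CRE variant that was added after the sequences were seen. Their letters are given with their matches. Which start the ATF3 anchor uses was not determined, so neither ATF3 window was matched to that transcript.
JUN: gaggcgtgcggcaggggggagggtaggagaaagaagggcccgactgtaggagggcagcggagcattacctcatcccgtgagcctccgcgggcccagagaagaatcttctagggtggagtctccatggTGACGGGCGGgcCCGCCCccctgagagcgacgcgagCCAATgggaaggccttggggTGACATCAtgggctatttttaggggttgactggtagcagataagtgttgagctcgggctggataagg
JUND: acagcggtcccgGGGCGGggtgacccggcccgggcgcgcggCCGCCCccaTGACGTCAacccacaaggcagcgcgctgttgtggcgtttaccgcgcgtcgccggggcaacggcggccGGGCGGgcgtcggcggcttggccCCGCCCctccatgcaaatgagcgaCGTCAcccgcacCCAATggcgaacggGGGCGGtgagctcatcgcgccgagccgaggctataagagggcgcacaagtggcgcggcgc
ATF3: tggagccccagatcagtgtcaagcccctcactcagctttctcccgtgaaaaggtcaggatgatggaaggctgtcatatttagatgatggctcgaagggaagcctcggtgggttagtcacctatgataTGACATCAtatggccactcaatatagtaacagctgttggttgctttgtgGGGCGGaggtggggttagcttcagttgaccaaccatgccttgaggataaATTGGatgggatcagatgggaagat
FOS: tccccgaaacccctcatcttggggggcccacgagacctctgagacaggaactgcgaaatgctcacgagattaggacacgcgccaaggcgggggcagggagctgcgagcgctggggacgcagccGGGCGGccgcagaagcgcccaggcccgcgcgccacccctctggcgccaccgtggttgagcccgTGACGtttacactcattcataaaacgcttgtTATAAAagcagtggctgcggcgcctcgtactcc
EGR1: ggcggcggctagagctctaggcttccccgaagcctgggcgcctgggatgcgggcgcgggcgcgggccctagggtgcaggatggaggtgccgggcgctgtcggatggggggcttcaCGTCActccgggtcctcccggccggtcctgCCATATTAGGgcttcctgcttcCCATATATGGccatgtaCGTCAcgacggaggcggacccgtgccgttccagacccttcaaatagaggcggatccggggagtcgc

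The CRE variant, TGACATCA, is the sequence through which JUN is known to act on its own promoter together with ATF2. It lay at -67 to -60 from the start of JUN and at -123 to -116 from the first ATF3 start, with no match before the other. It was found in 2.37% of the 35116 promoters of this length in the table. JUND held the full CRE, TGACGTCA, at -200 to -193, found in 1.65% of all promoters, and the core matches within it on both strands. The core itself (TGACG) was present at 7 of the 8 genes, against 21.2% of all promoters, and at JUN it shares a base with a GC box. Within the 250 bases searched, CArG boxes matched at EGR1 alone, at -105 to -96 and at -83 to -74, and in 1.16% of all promoters. Bases further upstream were not searched, so a CArG box of FOS or another gene beyond this window would be missed. The TATA box, searched as TATAAA, matched at 4 of the 8 genes and in 10.7% of all promoters. It began at -33 for FOS, -31 for JUNB and -30 for FOSB, but at -230 for ATF3, from the start not shown. The AP-1 site, searched as TGANTCA, matched in none of the 9 windows of the 8 genes, and in 6.57% of all promoters. The EGR site, searched as GCGGGGGCG, likewise matched in none of them, and in 4.72% of all promoters. A GC box (GGGCGG) was present at 6 of the 8 genes, against 42.6% of all promoters. A CCAAT box, with those letters, was present at 4, against 32.0% of all promoters. These are matches of letters within 250 bases and not measured sites.

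ATF3, a stress-induced factor that pairs with JUN proteins and can repress or activate, had the next largest difference among the better measured genes, without a call. Its anchor ENST00000341491, at chr1:212738676-212794119 (hg19), stood at 14.3 FPKM in KO cells and 8.65 FPKM in WT cells, a ratio of 1.65 with p = 0.118 and q = 0.991 in the authors' deposited table. The tracking intervals were 6.74 to 23.5 FPKM in KO cells and 2.18 to 14.7 FPKM in WT cells and overlapped. The most abundant ATF3 row, ENST00000366985, stood at 19.9 FPKM in KO cells and 9.60 FPKM in WT cells (p = 0.171 in the authors' deposited table). Its ratio of 2.07 exceeded that of JUN, but its intervals, 1.25 to 48.0 FPKM in KO cells and 0 to 21.1 FPKM in WT cells, overlapped widely. Of the 7 tested ATF3 rows 6 were higher in KO cells in either table. The exception in the test table was ENST00000366987, at 3.87 FPKM in KO cells and 3.999 FPKM in WT cells. Summed over its 10 rows, the ATF3 locus held 43.8 FPKM in KO cells and 25.6 FPKM in WT cells, a ratio of 1.71, and in the tracking table sums of 47.5 and 24.9 FPKM in the same order, a ratio of 1.90. The anchor held 32.6% of the sum in KO cells and 33.8% in WT cells, while ENST00000366985 held 45.4% in KO cells and 37.6% in WT cells, and ENST00000366987 held 8.84% in KO cells and 15.6% in WT cells. None of these shares was tested.

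EGR1, a zinc finger factor induced through serum response elements, was low in both groups. Its single transcript ENST00000239938, at chr5:137801179-137805004 (hg19), stood at 1.73 FPKM in KO cells and 1.65 FPKM in WT cells in the test table (p = 0.811, q = 0.991 in the authors' deposited table). In the tracking table the order turned, with 1.54 FPKM (interval 0.799 to 2.28) in KO cells and 1.61 FPKM (0.844 to 2.37) in WT cells. The intervals cover nearly the same range, so a difference was not detectable for EGR1 at this level of error.

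FOS, the founding partner of JUN, was below 1 FPKM in both groups by its anchor. The anchor ENST00000303562, at chr14:75745477-75748933 (hg19), stood at 0.757 FPKM in KO cells and 0.831 FPKM in WT cells (p = 0.799 in the authors' deposited table). In the tracking table it stood at 0.493 FPKM (interval 0 to 1.25) in KO cells and 0.812 FPKM (0.146 to 1.48) in WT cells. The sum over its 10 rows went the other way, with 5.49 FPKM in KO cells and 2.30 FPKM in WT cells. The row with the largest share of the sum in KO cells was ENST00000557139, with 49.5% there and 19.5% in WT cells, where the anchor held 36.1%. It stood at 2.72 FPKM in KO cells and 0.449 FPKM in WT cells (p = 0.427 in the authors' deposited table), with a knockout interval of 0 to 5.80 FPKM. Another row, ENST00000554617, stood at 0.931 FPKM in KO cells and was listed at 0 in WT cells (p = 0.1045 in the authors' deposited table). In the tracking table the sums were 3.99 FPKM in KO cells and 2.25 FPKM in WT cells. All 5 FOS rows above 0 in KO cells had a tracking value of 0.652 times the test-table value or within 0.001 of it, whereas this ratio was 0.993 for JUN. No FOS row passed, and the anchor and the sum disagreed in sign.

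The remaining FOS family genes were as low. FOSL2, which encodes the Fra-2 protein, was higher in KO cells in each of its 4 tested rows, none of which passed. Its anchor ENST00000264716, at chr2:28607276-28640179 (hg19), stood at 1.04 FPKM in KO cells and 0.657 FPKM in WT cells (p = 0.164, q = 0.991 in the authors' deposited table). The tracking intervals, 0.370 to 1.49 FPKM in KO cells and 0.122 to 1.16 FPKM in WT cells, overlapped. The FOSL2 rows ENST00000460736, at 3.93 FPKM in KO cells and 1.56 FPKM in WT cells, and ENST00000545753, at 2.24 and 1.72 FPKM in the same order, held most of a locus sum of 7.62 FPKM in KO cells and 4.15 FPKM in WT cells. In the tracking table ENST00000460736 stood at 2.56 FPKM in KO cells and 1.52 FPKM in WT cells. The FOSL2 sum there was 6.14 FPKM in KO cells and 4.05 FPKM in WT cells.

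FOSL1, which encodes the Fra-1 protein and is known as a marker of strong MAP kinase signalling, was close to 0. Its anchor ENST00000312562 stood at 0.0663 FPKM in KO cells, was listed at 0 in WT cells and was not tested. The sum over the 5 rows at chr11:65659520-65668044 (hg19) was 1.21 FPKM in KO cells and 0.872 FPKM in WT cells. Within it ENST00000448083 stood at 0.478 FPKM in KO cells and 0.519 FPKM in WT cells, and ENST00000532401 at 0.670 and 0.0719 FPKM in the same order. Unlike ENST00000532401, ENST00000531493 was lower in KO cells, at 2.69e-05 FPKM against 0.281 FPKM in WT cells, where it held 32.2% of the sum. The FOSB anchor ENST00000353609 stood at 0.00175 FPKM in KO cells and 0.326 FPKM in WT cells (p = 0.449 in the authors' deposited table). Its intervals, 0 to 0.0717 FPKM in KO cells and 0 to 1.46 FPKM in WT cells, overlapped.

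**Figure D3:**
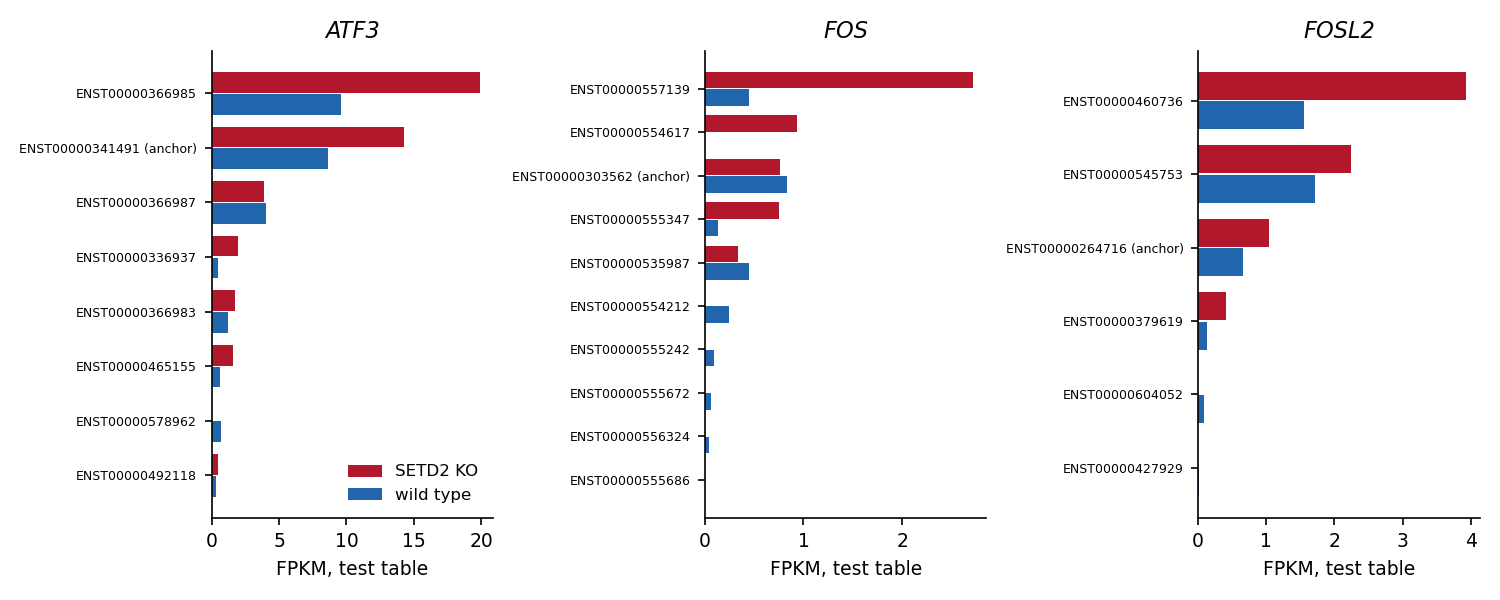
Test-table FPKM of every row above 0 at the ATF3, FOS and FOSL2 loci, SETD2 KO in red above wild type in blue. The pair of leading ATF3 rows, at 19.9 and 14.3 FPKM in KO cells against 9.60 and 8.65 FPKM in WT cells, carry most of the locus sum, and at FOS the longest bar in KO cells is that of ENST00000557139, at 2.72 FPKM against 0.449 FPKM in WT cells.

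The 4 FOS family anchors together came to 1.87 FPKM in KO cells and 1.81 FPKM in WT cells, and in the tracking table to 1.47 FPKM in KO cells and 1.77 FPKM in WT cells. The JUN family anchors therefore outweighed the FOS family anchors in both groups. In the test table they did so by 86.7 times in KO cells and 56.0 times in WT cells. In the tracking table it was by 112 and 56.1 times in the same order. The denominators rest on anchors whose intervals reach 0 or close to it, so these ratios are rough. The FOS and FOSL2 anchors also held only 13.8% and 13.7% of their locus sums in KO cells, and 36.1% and 15.8% in WT cells. The anchors thus give neither the ratio of whole genes nor which genotype has the larger one.

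**Figure D4:**
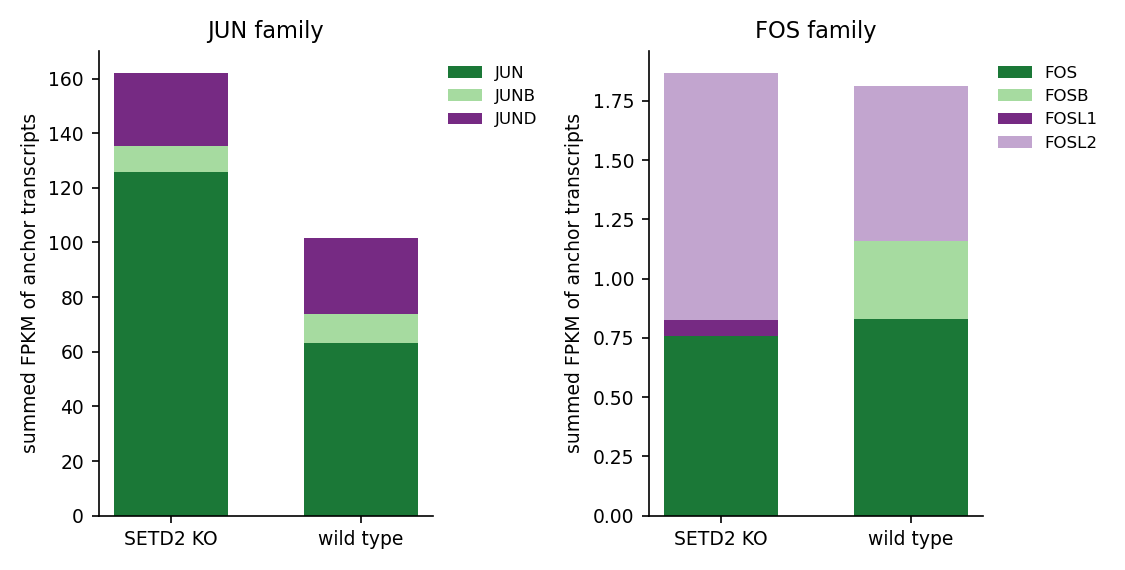
Stacked test-table FPKM of the anchors of the JUN family and the FOS family, SETD2 KO left of wild type, on axes that differ in scale. The JUN family sum is 162 FPKM in KO cells and 102 FPKM in WT cells and parts at JUN, while the FOS family sums are 1.87 and 1.81 FPKM in the same order.

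By anchor level the order in KO cells was JUN, JUND, ATF3, JUNB, EGR1, FOSL2, FOS, FOSL1 and FOSB. In the wild type it was JUN, JUND, JUNB, ATF3, EGR1, FOS, FOSL2, FOSB and FOSL1. In both groups JUN and JUND were the only neighbours in this order whose intervals did not overlap. Anchors further apart in the order could still be separated. The JUND interval lay above that of EGR1 in both groups, and above that of ATF3 (2.18 to 14.7 FPKM) in WT cells, where it began at 17.2 FPKM. The ATF3 interval lay above that of EGR1 in KO cells, beginning at 6.74 FPKM against an upper bound of 2.28 FPKM. These are intervals of single transcripts, and locus sums, which carry no interval, gave another order. In KO cells the FOS and FOSL2 sums, at 5.49 and 7.62 FPKM, stood above EGR1 at 1.73 FPKM. In WT cells they stood at 2.30 and 4.15 FPKM, against 1.65 FPKM. The JUND sum was 51.2 FPKM in KO cells and 56.6 FPKM in WT cells, beside 126 and 63.4 FPKM for JUN. In the tracking table the JUND sum was 60.9 FPKM in KO cells and 55.3 FPKM in WT cells, so its direction depends on the table.

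Over the 9 locus sums the median of the log2 folds (KO over WT) was 0.48, and 7 of the 9 sums were higher in KO cells. Over all 12467 loci that reached 1 FPKM in either group, with no 0 in the other, the median was 0.06 and 56.1% were higher. In the tracking table the medians were 0.60 for the 9 sums and 0.08 for all loci. The FOSL1 locus reached 1 FPKM in KO cells only, and the JUNB and FOSB loci hold other genes. Without those 2 loci the median over the remaining 7 was 0.78. When the JUN locus alone was left out of the 9, the median was 0.34. By anchors the picture was even, with 5 higher and 4 lower in KO cells.

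The loci around each gene were compared with it to place its fold among those of its surroundings. Within 1 Mb of JUN 6 other expressed loci had a median log2 fold of 0.35, and 1 of them lay at or above the 0.99 of JUN. Within 5 Mb the median was 0.06 over 37 loci, and 2 lay at or above JUN. Around ATF3 17 loci within 1 Mb had a median of 0.13, with 2 at or above the 0.78 of the ATF3 sum. Around FOSL2 the median was -0.08 over 10 loci, and none of these lay at or above its 0.88. EGR1, with a log2 fold of 0.07, lay amid its 18 neighbours, which had a median of 0.06. The neighbours of JUND and of the merged JUNB and FOSB loci on chromosome 19 had medians of -0.09, -0.10 and -0.08. In the tracking table these medians were 0.05, 0.08 and 0.07 in the same order, so their sign depends on the table. Around FOS 17 loci had a median of 0.22, with 2 at or above the 1.25 of the FOS sum, and around FOSL1 7 of 53 lay at or above its 0.48. The sums of JUN, ATF3, FOSL2, FOS and FOSL1 were thus higher in log2 fold than most loci within 1 Mb, as was the merged FOSB locus, at 0.21 with 5 of 33 at or above it.

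**Figure D5:**
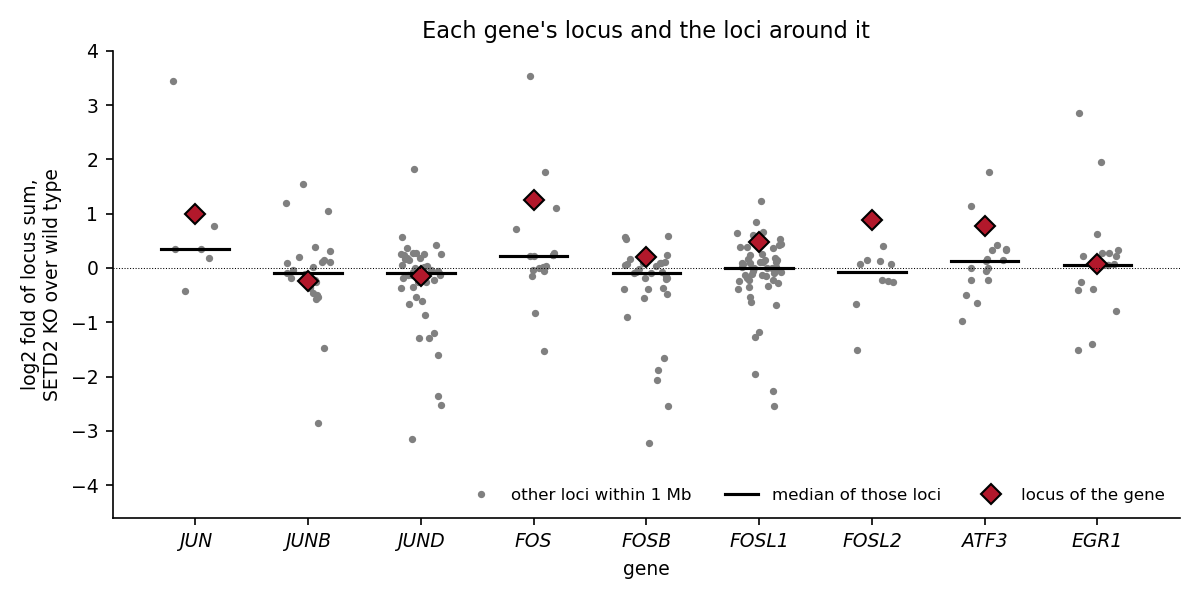
Log2 fold of locus sums, SETD2 KO over wild type, in the test table; diamonds are the loci of the 9 genes, dots the other expressed loci within 1 Mb, and lines their medians. JUN, FOS, FOSL2 and ATF3 lie above the median of their surroundings, and JUND and EGR1 lie near it; the JUNB and FOSB diamonds are sums over merged loci that hold other genes too.

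Values of 0 were uneven between the groups. Of the 141 member rows, 27 were listed at 0 in KO cells alone and 2 in WT cells alone, or 19.1% and 1.42%, beside 14.8% and 3.67% of all rows of the files. Most member rows, 104 of the 141, lie at the merged JUNB and FOSB loci, so these counts are largely not of the 9 genes. Of the rows at 0 in KO cells in the test table, 7 were above 0 in the tracking table, against 0 such rows for the wild type. Of the 94 member rows above 0 in KO cells, 41 had a tracking value under 0.66 times the test value (43.6%), as had 37.5% of all such rows. Among tested members 1 had a deposited p-value under 0.05, that of JUN, and the smallest of the others was 0.0981.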

How the data were processed

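RNA of SETD2 knockout and wild type HEK293T cells, 3 libraries each, was depleted of ribosomal RNA, per the labels' protocols; 1 wild type library carries a ChIP protocol there. The submitters' processing notes name TopHat, Cuffdiff, Bowtie 1.1.2 and hg19, without role. The annotation used was not named in the labels. Nothing says that libraries came from separate cultures, so any spread between libraries that entered the deposited p-values may be technical.

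The authors deposited FPKM per transcript and group in 2 tables, with bounds in the tracking table. The deposited table of tests gives the log2 fold (WT over KO), a test score and p-values and q-values, the p-values in steps of 5e-05. Folds are printed as KO over WT, with the sign reversed. A table named for transcripts was identical and not used. Starts have 1 added, since the files are 0-based.

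With group values alone no model can be fitted, and calls are those of the deposited q-value at 0.05. FPKM were summed per locus over all rows. None of the member rows had a failed estimate. Loci with one were left out of the totals over all loci, as were loci under 1 FPKM in both groups. Folds carry no pseudocount. Members, lists and the 16 alternatives were chosen with earlier results of these data known, and 2 alternatives were added later. All 9 genes are named, with their anchors, rows that carry a locus sum and any called row; other rows of at least 1 FPKM at the JUNB, FOSB and ATF3 loci are given in counts only. Other AP-1 genes, SETD2 and PLK1 were not analysed here, since 0 of the IDs matched a table of gene names. Locus sums and motif searches were tested on simulated data. Python 3.11.15, pandas 2.3.3, numpy 2.4.6 and matplotlib 3.10.9 were used.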

Additional observations from a re-analysis of the deposited data

How the results depend on the processing

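Of 99 recomputed values from 18 alternatives, 94 stayed within their error, taken as 0.5 times the arm of the authors' intervals, as the chromosome's spread for neighbouring loci, or for counts as 1.5 times. The count of 94 says little by itself. For JUN and EGR1, with a single row each, the anchor alone and the filter on rows could not change the sum. Errors were also wide for weak genes. The log2 fold of the FOSB anchor went from -7.54 to -0.40 with a pseudocount of 1 FPKM, within an error of 38.5. JUN kept its direction in all of its alternatives, with log2 folds of 0.93 to 1.01. A q-value threshold of 0.01 called 0 members, since the smallest q-value in the authors' deposited table was 0.0220; at an unadjusted p under 0.05 the count was 1. The FOS locus sum, at 1.25, became -0.14 with the anchor alone and 2.60 with only rows of at least 1 FPKM, where a single row is left. The FOSB locus sum, at 0.21, became -7.54 with the anchor alone, which is nearly 0 in KO cells. The median around JUN became 0.055 within 5 Mb. Of 82 recomputed folds 9 changed sign, all of uncalled values: those of JUND and EGR1 in the tracking table (each as sum and as anchor), those of FOS and FOSB with the anchor, and the medians around JUND, FOS and FOSL2 within 5 Mb. Medians around the genes in the tracking table are not in this count. No paired analysis was possible because the files hold group values only, and no library could be left out for the same reason. Interval arms of the anchors in KO cells were 31.8% of the value for JUN and 153% for FOS. Calls rest on the deposited q-values, and how these relate to the intervals was not tested.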

Other observations

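The rows that share a merged locus with JUNB and FOSB, and whose genes the files do not name, were abundant. At the JUNB locus ENST00000301522 stood at 403 FPKM in KO cells and 435 FPKM in WT cells, and ENST00000585496 at 216 FPKM in KO cells and 297 FPKM in WT cells. None of the 39 tested rows there passed in the authors' deposited table, where their smallest p-value was 0.121. At the FOSB locus ENST00000589804 stood at 21.9 FPKM in KO cells and 17.6 FPKM in WT cells, and none of the 27 tested rows passed.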
